A study of Mus musculus with 4 samples.

Results

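A 47 Mb interval of mouse chromosome 1 that begins at 80 Mb (build mm10) was examined across 4 libraries of open chromatin. Its members are the peaks of the common peak table that lie wholly inside it, which are 1609 of the 130941 peaks in the table. Of these 1609 peaks, 1605 passed the filter on low counts. The interval was delimited because it holds peaks nearly lost in Helios null libraries, so the difference between genotypes chose it, and that difference is described here with no test. The Helios null group consisted of 2 mice that lack Helios, and the wild-type (WT) group of 2 mice, all 10 weeks old and each the source of 1 library. The sources used here give no strain, no littermate status and no description of the deleted part of Ikzf2. Lin-Sca1+ckit+ bone marrow cells were sorted and assayed by fast-ATAC, which reads open DNA by letting a transposase cut it and attach adapters.

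Helios, encoded by Ikzf2 on the same chromosome, is a zinc finger transcription factor of the Ikaros family, whose members bind DNA and recruit chromatin remodelling and repressor complexes. The Lin-Sca1+ckit+ gate holds the stem cells of the blood together with their earliest descendants. An accessible peak marks DNA that is free enough of nucleosomes for the transposase to enter, as at active promoters and enhancers. The interval begins 10.3 Mb beyond the Ikzf2 promoter peak and ends 57.3 Mb beyond it. It alternates between gene-rich stretches, among them the one with Inpp5d, Per2 and Hdac4, and gene deserts around neural adhesion genes. In cells assayed in bulk, fewer cells with an open site and less opening per cell cannot be told apart.

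The peak over the Ikzf2 promoter held 22.2 and 24.0 normalised counts (CPM) in Helios null and 32.8 and 48.2 CPM in WT, and 4 of the 9 peaks assigned to Ikzf2 had both Helios null libraries below both WT libraries. Since the deleted part is not known, these peaks do not check the deletion. Counts over all peaks totalled 30290804 and 22433714 in the Helios null libraries and 29745812 and 16033211 in the WT libraries, so WT 2 was the shallowest. Peaks of 4 Y-linked genes held 1166 counts in Helios null 1 and 2 in Helios null 2, against 1715 in WT 1 and 5 in WT 2, so library number followed sex in both genotypes. Of 9 stem and progenitor marker genes, 8 had a promoter peak, at 7.18 to 35.4 CPM in Helios null and 7.76 to 44.1 CPM in WT. Ly6a, which encodes the sorting antigen Sca1, had no peak assigned to it. Cd3e and Ly6g, markers of T cells and granulocytes that the sort should remove, had no promoter peak in the table.

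Promoter sequence was available for genes in RefSeq (build GRCm38.p6), as windows of 300 bases from 250 before to 50 after a transcription start. The interval held 401 windows, and 105 member peaks held at least 1 of them whole. The promoters below are shown because, among such members of at least median level whose groups did not overlap, they lie in peaks of the lowest and the highest fold changes. Serpinb8, an intracellular serine protease inhibitor gene, and Slco4c1, an organic anion transporter gene, had log2 fold changes of -1.24 and -1.16 there. Glrp1 and Mlph, the gene of the melanosome adaptor melanophilin, had log2 fold changes of 1.65 and 0.95. Capitals mark matches on either strand to 6 short motifs. They are the ETS core GGAAGT, known from factors such as PU.1, and the RUNX core TGTGGT, known from factors of blood stem cells. The Ikaros family core is TGGGAA, the one that Helios itself is known to share with its relatives. The GATA core is AGATAA, a site of blood and stem cell factors of that family. The AP-1 site is TGACTCA, bound by dimers of the Fos and Jun families of factors. The core of the insulator protein CTCF was searched as CCACNAGG.
Serpinb8 promoter (chr1:107589756-107590055, plus strand): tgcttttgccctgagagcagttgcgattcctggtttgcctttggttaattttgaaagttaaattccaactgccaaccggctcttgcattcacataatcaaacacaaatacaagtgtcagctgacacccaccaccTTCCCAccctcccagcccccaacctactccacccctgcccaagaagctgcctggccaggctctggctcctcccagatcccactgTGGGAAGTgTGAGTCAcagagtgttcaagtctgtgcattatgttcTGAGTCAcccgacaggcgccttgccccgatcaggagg
Slco4c1 promoter (chr1:96872122-96872421, minus strand): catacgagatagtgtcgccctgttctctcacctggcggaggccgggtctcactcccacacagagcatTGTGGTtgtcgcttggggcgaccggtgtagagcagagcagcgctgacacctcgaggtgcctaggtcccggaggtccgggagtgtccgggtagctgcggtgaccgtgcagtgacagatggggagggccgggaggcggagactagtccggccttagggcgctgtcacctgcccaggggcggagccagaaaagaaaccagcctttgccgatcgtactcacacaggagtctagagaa
Glrp1 promoter (chr1:88510017-88510316, minus strand): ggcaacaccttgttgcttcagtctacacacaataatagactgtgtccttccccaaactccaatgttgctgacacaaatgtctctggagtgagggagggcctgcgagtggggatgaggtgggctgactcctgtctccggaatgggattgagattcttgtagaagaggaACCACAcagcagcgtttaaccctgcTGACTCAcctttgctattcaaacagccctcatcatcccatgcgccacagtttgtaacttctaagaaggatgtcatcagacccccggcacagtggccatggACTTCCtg
Mlph promoter (chr1:90914850-90915149, plus strand): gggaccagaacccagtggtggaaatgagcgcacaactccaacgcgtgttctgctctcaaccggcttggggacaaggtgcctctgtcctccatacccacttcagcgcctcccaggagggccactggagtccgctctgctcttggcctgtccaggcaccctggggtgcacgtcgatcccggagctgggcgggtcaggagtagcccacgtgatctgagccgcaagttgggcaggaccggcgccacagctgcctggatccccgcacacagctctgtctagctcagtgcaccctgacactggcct

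The Serpinb8 window held 2 matches to the Ikaros family core and 2 to the AP-1 site, and 1 of the Ikaros family matches overlapped its match to the ETS core. The Slco4c1 window held 1 match, to the RUNX core. The Glrp1 window held 1 match each to the ETS core, the RUNX core and the AP-1 site, and the Mlph window held none of the 6 motifs. The Ikaros family core was found in 25.6% of all 32817 windows, in 25.9% of those inside the interval and in 19.0% of the windows held by the 105 members. In the same order, the AP-1 site was in 5.20%, 4.99% and 4.76% of windows, and the ETS core in 23.8%, 25.9% and 29.5%. The RUNX core was in 16.8%, 18.5% and 16.2%, and the CTCF core in 4.99%, 4.24% and 4.76%. The GATA core was in 11.2%, 10.5% and 1.90%. These shares describe letters in windows and say nothing of binding. The first 2 shares of each motif count windows whether or not a peak holds them. Shares in the windows held by all tested peaks were not taken, so no motif share is read as a trait of the interval. The GC content of the Serpinb8, Slco4c1, Glrp1 and Mlph windows was 53.3%, 63%, 51.3% and 64.3%, against a median of 63.7% over the 105 members. Across those 105 members, which are not independent, GC content and log2 fold change had a Spearman correlation of -0.10.

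The members furthest below WT were 4 peaks on 3 sites. They are the members with at least 1 CPM in WT and a mean at least 10-fold lower in Helios null, a rule that 0.0153% of all tested peaks met. Since such peaks delimited the interval, nothing is read from their share of it (0.249%). Nor is anything read from their genotypes lying apart, because the rule picked them by their group means. A pair of them lie beside each other in an intergenic stretch assigned to the predicted gene Gm28282, 431920 bp from Serpinb8, the nearest protein-coding gene, and may belong to 1 site.

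The first Gm28282 peak (chromosome 1, start 108040898, end 108041358, 461 bp) held 16 and 7 counts in the Helios null libraries, against 96 and 126 in the WT libraries. That is 0.528 and 0.305 CPM in Helios null and 3.19 and 8.14 CPM in WT. Both Helios null libraries lay far below both WT libraries, and WT 2 was well above WT 1. The means were 0.417 ± 0.157 CPM in Helios null and 5.66 ± 3.50 CPM in WT (SD, n = 2 each), with a log2 fold change of -3.69 (SE 0.52). The second Gm28282 peak (start 108041434, end 108041829, 396 bp) held 6 and 8 counts in Helios null, against 61 and 85 in WT. It averaged 0.273 ± 0.107 CPM in Helios null and 3.76 ± 2.45 CPM in WT (SD, n = 2 each), with a log2 fold change of -3.75 (SE 0.58). This second peak repeated the order of the first, with WT 2 highest.

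The peak of the predicted gene Gm37936 (start 126109792, end 126110390, 599 bp) lies within Nckap5, the gene of a protein that binds the Nck adaptor. It held 4 and 11 counts in the Helios null libraries and 51 and 102 in the WT libraries. In CPM this was 0.132 and 0.480 in Helios null, against 1.69 and 6.59 in WT, a log2 fold change of -3.77 (SE 0.72). WT 2 was far above WT 1 here, and the groups did not overlap. The intronic peak of Col6a3, the collagen VI alpha 3 chain gene (start 90772519, end 90772788, 270 bp), held 5 and 6 counts in Helios null and 69 and 31 in WT. It averaged 0.213 ± 0.0685 CPM in Helios null and 2.15 ± 0.205 CPM in WT (SD, n = 2 each), with a log2 fold change of -3.34 (SE 0.48). At Col6a3 the WT libraries were close to each other, unlike at the other near-lost peaks.

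**Figure D1:**
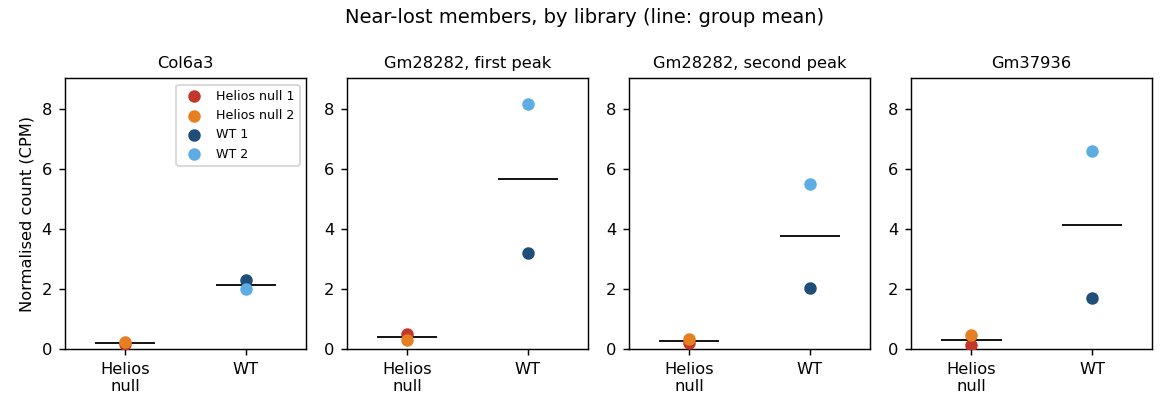
Normalised counts (CPM) of the 4 near-lost members in each library, Helios null left and WT right, with lines at the group means. Every Helios null value is at or under 0.528 CPM, while the WT values run from 1.69 to 8.14 CPM.

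These 4 peaks rest on few reads in Helios null. The ratio of summed counts, WT over Helios null and scaled to library size, was 11.3 at the first Gm28282 peak, with an exact 95% counting interval of 7.32 to 18.2. It was 12.2 (7.03 to 22.8) at the second, 11.9 (7.0 to 21.8) at Gm37936 and 10.6 (5.69 to 21.9) at Col6a3. These intervals cover counting error only. Without WT 2 the WT mean at the first Gm28282 peak, the second and Gm37936 was 7.66, 7.41 and 5.54 times the Helios null mean, so of the 4 only Col6a3 (10.8 times) still met the 10-fold rule. Without Helios null 1 it was 8.62 times at Gm37936 and 8.20 times at Col6a3, and the Gm28282 pair still met the rule. With a density trend taken out of each library, described below, the 4 ratios of means lay between 7.14 and 9.81. The Col6a3 ratio was also under 10 with total counts as library sizes (9.83), with loess offsets (9.39) and without WT 1 (9.43).

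At a 5-fold limit 8 members qualified, which adds 4. An intronic peak of Dock10, the gene of a guanine nucleotide exchange factor of lymphocytes (start 80576995, end 80577174), held 7 and 5 counts in Helios null against 34 and 35 in WT. A peak of the predicted gene Gm28066 (start 80949581, end 80949909) held 10 and 10 counts in Helios null against 40 and 51 in WT. A peak in an exon of Pid1, a gene for an insulin signalling inhibitor (start 84283412, end 84283565), held 7 and 10 counts in Helios null against 41 and 38 in WT. A peak of Gm18444, 33838 bp from Gpr39 (start 125642898, end 125643158), held 10 and 7 counts in Helios null against 58 and 30 in WT. The groups did not overlap at any of these 4 peaks, and their log2 fold changes ran from -2.84 at Dock10 to -2.50 at Pid1. Since the 5-fold limit picked them by their group means, nothing is read from the groups lying apart.

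Across the whole interval the typical difference was small. The median log2 fold change of Helios null over WT was -0.15 over the 1605 tested members, with quartiles of -0.61 and 0.27, against 0.01 over all tested peaks. It was -0.17 between the libraries numbered 1 and -0.13 between those numbered 2. Both Helios null libraries lay below both WT libraries at 596 members (37.1%) and above them at 338 (21.1%). Over all tested peaks these shares were 28.3% and 28%. A log2 fold change of -1 or less was found at 145 members (9.03%, against 6.1% of all tested peaks), and one of 1 or more at 47 (2.93%, against 2.52%). The highest fitted value belonged to an intronic peak of Ugt1a6a, a gene of drug glucuronidation (start 88140563, end 88140759), which held 31 and 13 counts in Helios null against only 2 and 1 in WT.

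With edgeR's quasi-likelihood test, fitted on genotype alone with no term for sex, 0 members had an adjusted p under 0.05. Of all 130754 tested peaks 8 (0.00612%) did, 0.00535% lower and 0.000765% higher. At an unadjusted p under 0.05 the same test gave 284 lower and 94 higher members, which is 17.7% and 5.86%, against 11.5% and 8.29% of all tested peaks. DESeq2 called 9 members lower and 0 higher of the 663 members it adjusted, where it called 0.926% of all adjusted peaks lower and 0.433% higher. limma-voom called 0 members in either direction, against 0.00229% of all tested peaks lower and 0.000765% higher. Nothing is read from these counts, because the contrast chose the interval.

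Neighbouring members lay on the same side over long stretches. In blocks of 80 to 90, 90 to 100, 100 to 110 and 110 to 120 Mb and the last 7 Mb, median log2 fold changes were 0.05, 0.07, -0.36, -0.47 and -0.57, over 630, 444, 225, 126 and 180 tested peaks. In the first 2 blocks, 289 of 1074 members (26.9%) had both Helios null libraries below both WT libraries and 306 (28.5%) had them above. These shares were near the 28.3% below and 28% above of all tested peaks. In the last 3 blocks, 307 of 531 members (57.8%) had them below and 32 (6.03%) above. Within the last 3 blocks the medians were -0.31, -0.34 and -0.55 between the libraries numbered 1, and -0.40, -0.49 and -0.55 between those numbered 2.

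**Figure D2:**
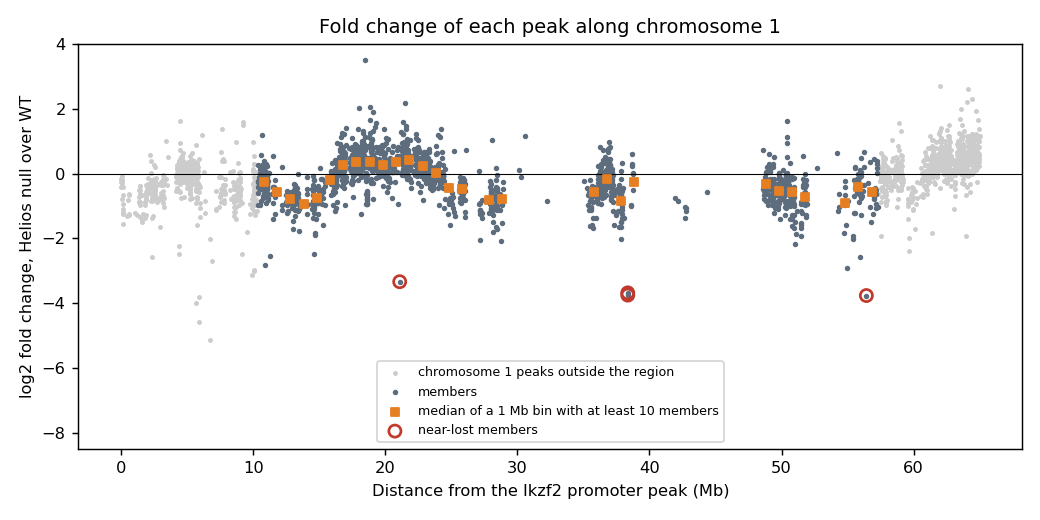
Log2 fold change of each tested peak, Helios null over WT, against the distance from the Ikzf2 promoter peak in Mb, with 1 Mb bin medians as squares and the 4 near-lost members circled. Bin medians are above 0 in the 8 bins centred from 16.8 to 23.8 Mb and below 0 in every other bin of at least 10 members.

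The 1 Mb bins traced the same stretches more finely. Of the 29 bins with at least 10 tested members, 21 had a median below 0, among them all 11 that start at 100 Mb or beyond. The stretch from 86 to 93 Mb, picked after its values were seen, was the long exception. It held 606 tested members, among them those of Inpp5d, Per2 and Hdac4, a median of 0.32 on the log2 scale, and bin medians between 0.24 and 0.42. Both Helios null libraries lay above both WT libraries at 282 of these 606 members (46.5%) and below at 32 (5.28%). Over all tested peaks these shares were 28% and 28.3%. The bins next to it, starting at 85 and 93 Mb, held 51 and 62 members with medians of -0.19 and 0.01. They belong neither to the stretch nor to the flanks described next.

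To the left of the 86 to 93 Mb stretch, from 81 to 85 Mb around Irs1 and the collagen IV genes, 129 members had a median of -0.76. Of these, 96 (74.4%) were below and 0 above, against 28.3% and 28% of all tested peaks. To the right of the stretch, from 94 to 99 Mb around Slco4c1 and Pam, 140 members had a median of -0.68, with 88 (62.9%) below and 3 above. The medians of the stretch, its left flank and its right flank were 0.24, -0.73 and -0.48 between the libraries numbered 1. They were 0.45, -0.75 and -0.81 between those numbered 2. Their size depended on the WT libraries. Without WT 2 they were 0.17, -0.55 and -0.35, and without WT 1 they were 0.55, -0.97 and -1.01. With the density trend described below taken out they were 0.25, -0.22 and -0.12.

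**Figure D3:**
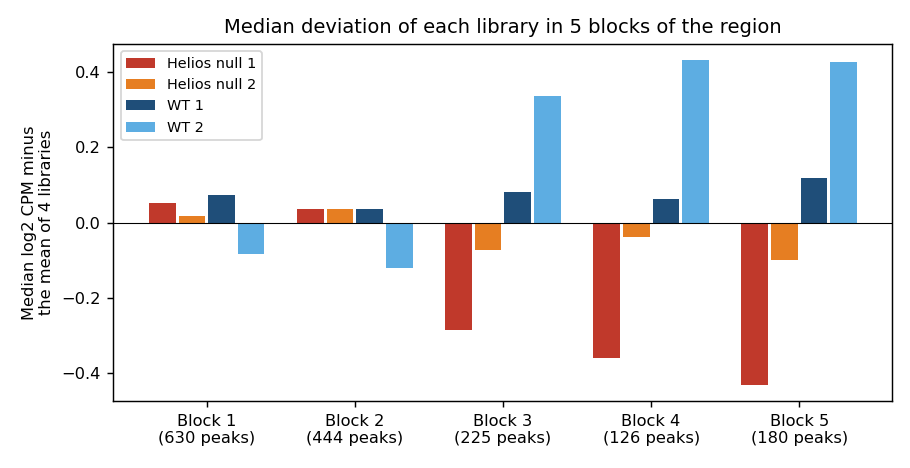
Median over the members of a block of a library's log2 CPM minus the mean of the 4 libraries, for blocks 1 to 5 (80 to 90, 90 to 100, 100 to 110 and 110 to 120 Mb and the last 7 Mb), with Helios null bars left of WT bars. In blocks 3 to 5 Helios null 1 is lowest, at -0.29 to -0.43, and WT 2 is highest, at 0.34 to 0.43.

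The libraries did not split evenly by genotype in the lower blocks. In the last block the median deviation from the mean of the 4 libraries was -0.43 in Helios null 1 and -0.10 in Helios null 2, against 0.12 in WT 1 and 0.43 in WT 2. The gap between WT 1 and WT 2 was therefore larger than that between Helios null 2 and WT 1. In the 86 to 93 Mb stretch the order turned round, with 0.27 in Helios null 1 and 0.10 in Helios null 2, against 0.04 in WT 1 and -0.35 in WT 2.

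Local peak density moved with part of these differences. In blocks 1 to 5 the median number of other peaks within 0.5 Mb was 77, 69, 83, 73 and 41. Block 3 was thus denser than block 1, though its median log2 fold change was lower. Members with up to 52 other peaks within 0.5 Mb (479 peaks) had a median log2 fold change of -0.67, against -0.64 for the 25830 other tested peaks of the same density. At 53 to 74 peaks within 0.5 Mb the median was -0.05 for 294 members and -0.21 for the other peaks. At 75 to 93 it was -0.08 for 411 members and 0.04 for the other peaks, so members did not rise between these bins. At 94 to 116 peaks within 0.5 Mb the median was 0.31 for 356 members and 0.22 for the other peaks. At 117 or more it was 0.11 for 65 members, against 0.39 for the other peaks. Of the members 29.8% fell in the sparsest bin, which is the lowest quintile of all tested peaks. Libraries of a genotype differed there too. The median difference of WT 1 minus WT 2 in the sparsest bin was -0.50 for members and -0.50 for other peaks, and that of Helios null 1 minus Helios null 2 was -0.35 and -0.31. What density stands for in these libraries was not tested. With a density trend taken out of each library, the median over the members was -0.029. The block medians were then -0.35 for 100 to 110 Mb, -0.29 for 110 to 120 Mb and -0.16 for the last 7 Mb.

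**Figure D4:**
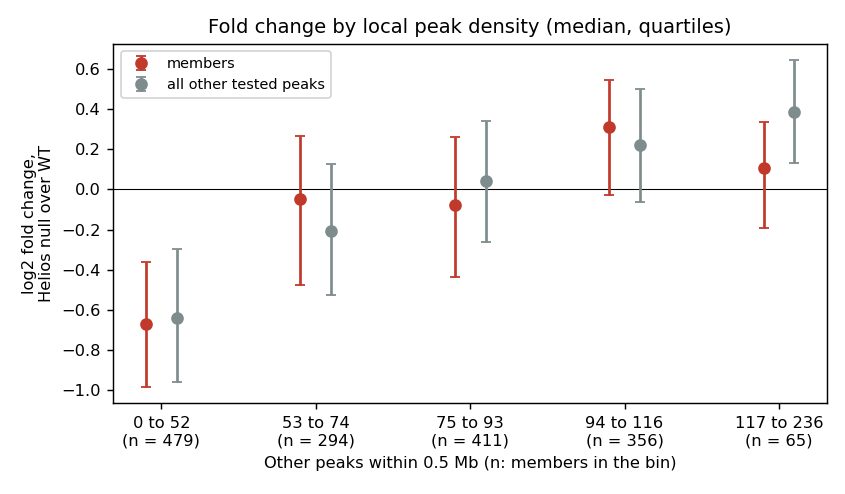
Median log2 fold change (points) with quartiles (bars) by the number of other peaks within 0.5 Mb, for members and for all other tested peaks. Both sets lie lowest in the sparsest bin, at -0.67 for members and -0.64 for other peaks.

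Blood and immune genes of the interval lay on both sides. The list of 16 genes, chosen by position and known role, covered 160 tested peaks, of which 60 (37.5%) were below and 36 (22.5%) above, with a median of -0.07 (0.06 with the density trend taken out). These shares were near the 37.1% below and 21.1% above of all members, and over all tested peaks they were 28.3% and 28%. Inpp5d encodes SHIP1, the phosphatase that restrains PI3 kinase signalling in blood cells. Its 21 peaks had a median of 0.57, with 10 above and 0 below. The Inpp5d promoter held 63.4 and 45.3 CPM in Helios null, against 42.2 and 30.4 CPM in WT. Both Helios null libraries were above both WT libraries there, although Helios null 2 exceeded WT 1 only slightly.

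Hdac4, a histone deacetylase gene, had 13 of 24 peaks above and 1 below, and its promoter was that exception. The Hdac4 promoter held 63.4 and 63.5 CPM in Helios null, against 78.3 and 78.5 CPM in WT, so libraries of a genotype were almost equal. Per2, a gene of the circadian clock, had 6 of 8 peaks above, with 59.9 and 51.0 CPM at its promoter in Helios null against 48.9 and 43.5 CPM in WT. In the 86 to 93 Mb stretch that holds Inpp5d, Hdac4 and Per2, 46.5% of all members were above and 5.28% below. Over all tested peaks these shares were 28% and 28.3%, so the counts of these genes are not read apart from their stretch. Bcl2, the survival gene, had a median of 0.12 over 10 peaks. Its promoter held 35.8 and 36.0 CPM in Helios null, against 42.0 and 48.8 CPM in WT, and so lay on the lower side.

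Other genes of the list had most peaks on the lower side. Dock10 had 21 of 29 peaks below, yet its promoter held 30.7 and 29.6 CPM in Helios null against 29.9 and 28.3 CPM in WT, with the groups overlapping. Irs1, which links insulin and IGF receptors to PI3 kinase, had 4 of 5 peaks below and a median of -0.88. Tnfrsf11a, the gene of the receptor RANK, had 9 of 13 peaks below. Marco, a macrophage scavenger receptor gene, had 6 of 7 below, and its strongest peak held 13.0 and 16.4 CPM in Helios null against 26.8 and 25.6 CPM in WT.

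Genes that every cell uses also lay on both sides. The 14 listed genes had 55 tested peaks at 13 of them, with 22 (40%) below, 11 (20%) above and a median of -0.22. These shares too were near those of all members, and over all tested peaks they were 28.3% and 28%. In the 86 to 93 Mb stretch, all 3 peaks of Ncl, which encodes nucleolin, had log2 fold changes between 0.28 and 0.53, and those of the proteasome subunit gene Psmd1 between -0.08 and 0.21. Cops7b, a COP9 signalosome subunit gene of the same stretch, lay the other way, with 2 of 3 peaks below, 1 above and a median of -0.45. Beyond 105 Mb, the promoter of Vps4b, an ATPase of endosomal sorting, held 21.8 and 23.3 CPM in Helios null against 30.9 and 48.4 CPM in WT. The promoter of Ddx18, an RNA helicase gene, held 21.3 and 26.8 CPM in Helios null against 32.5 and 49.5 CPM in WT. The median of these genes was -0.43 without WT 1 and -0.12 without Helios null 1, and -0.01 with the density trend taken out.

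Peaks of developmental genes, a list that also holds the collagen IV genes Col4a3 and Col4a4, and of neural genes lay mostly on the lower side. The 7 developmental genes had 41 peaks, 29 (70.7%) below and 1 above, with a median of -0.66. Below were 28.3% of all tested peaks, 37.1% of all members and 57.8% of the members beyond 100 Mb, where En1, Gli2, Inhbb and Tfcp2l1 of this list lie. All 10 peaks of Inhbb, an activin subunit gene, and all 7 of En1, a homeobox gene, had both Helios null libraries below both WT libraries. The strongest En1 peak held 3.40 and 4.28 CPM in Helios null, against 6.71 and 8.65 CPM in WT. Of 10 neural adhesion and channel genes, 6 had peaks, 32 in all, with 19 (59.4%) below, 1 above and a median of -0.60. That share below was near the 57.8% of all members beyond 100 Mb, where Cdh20, Dpp10, Nckap5 and Gpr39 of this list lie. Above were 28% of all tested peaks and 6.03% of the members beyond 100 Mb. The promoter of Dpp10, a gene for a partner of potassium channels, held 1.42 and 3.10 CPM in Helios null against 4.12 and 4.97 CPM in WT. The median of the neural list was -0.37 without WT 2, -0.32 without Helios null 1, -0.95 without Helios null 2 and -0.10 with the density trend taken out, and that of the developmental list -0.43 without Helios null 1 and -1.03 without Helios null 2.

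The Serpinb genes near 107 Mb, which encode protease inhibitors that act inside cells, also lay mostly on the lower side. Their 34 peaks had a median of -0.80, with 25 (73.5%) below and 0 above, where 57.8% of all members beyond 100 Mb were below and 6.03% above. Over all tested peaks these shares were 28.3% and 28%. The Serpinb peaks had a median of 38.5 other peaks within 0.5 Mb, which falls in the sparsest density bin. In that bin the median log2 fold change was -0.67 for all members and -0.64 for other peaks. The Serpinb median was -0.49 without WT 2 and -0.48 with the density trend taken out, against -0.52 and -0.50 for the developmental list in the same settings.

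Among members of at least the median level of all tested peaks (3.17 CPM) whose groups did not overlap, the 10 lowest had log2 fold changes from -2.18 to -1.16, and 9 of them lie beyond 100 Mb. The lowest is a distant-promoter peak of 2610027F03Rik, 75428 bp from En1 (start 120683419, end 120683990). It held 56 and 95 counts in Helios null, against 355 and 233 in WT, or 3.0 ± 1.62 CPM in Helios null and 13.4 ± 2.3 CPM in WT (SD, n = 2 each; log2 fold change -2.18, SE 0.36). Since the rule took only members whose groups did not overlap, nothing is read from the genotypes lying apart here. The number 1 pair differed more than the number 2 pair.

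An intronic peak of Serpinb10, a serpin gene of blood cells (start 107533573, end 107534545), held 4.25 and 5.19 CPM in Helios null, against 14.9 and 23.2 CPM in WT. A peak of the RNA gene Celrr, 149381 bp from the sterol regulator gene Insig2 (start 121154536, end 121154972), held 1.15 and 2.92 CPM in Helios null, against 6.05 and 9.49 CPM in WT. Its log2 fold change was -1.94 (SE 0.42). A peak of Gm28299 within Dpp10 (start 124584714, end 124585134) held 1.12 and 2.75 CPM in Helios null, against 4.68 and 6.78 CPM in WT. At the last 2 of these peaks Helios null 1 was well below Helios null 2, so the spread between libraries of a genotype was wide.

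The Serpinb8 peak that holds the promoter sequence printed above (start 107589725, end 107590699, annotated as an exon) held 9.0 and 10.5 CPM in Helios null, against 14.9 and 31.3 CPM in WT. The remaining 5 of the 10 were peaks of Gpr39, 1700121L03Rik, Gm9747, Gm37551 and Serpinb11, with log2 fold changes between -1.27 and -1.16. Of the 10, 4 had a log2 fold change at least 1.5 times smaller without WT 2, and 3 without Helios null 1. With the density trend taken out it was at least 1.5 times smaller at 7 of the 10.

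**Figure D5:**
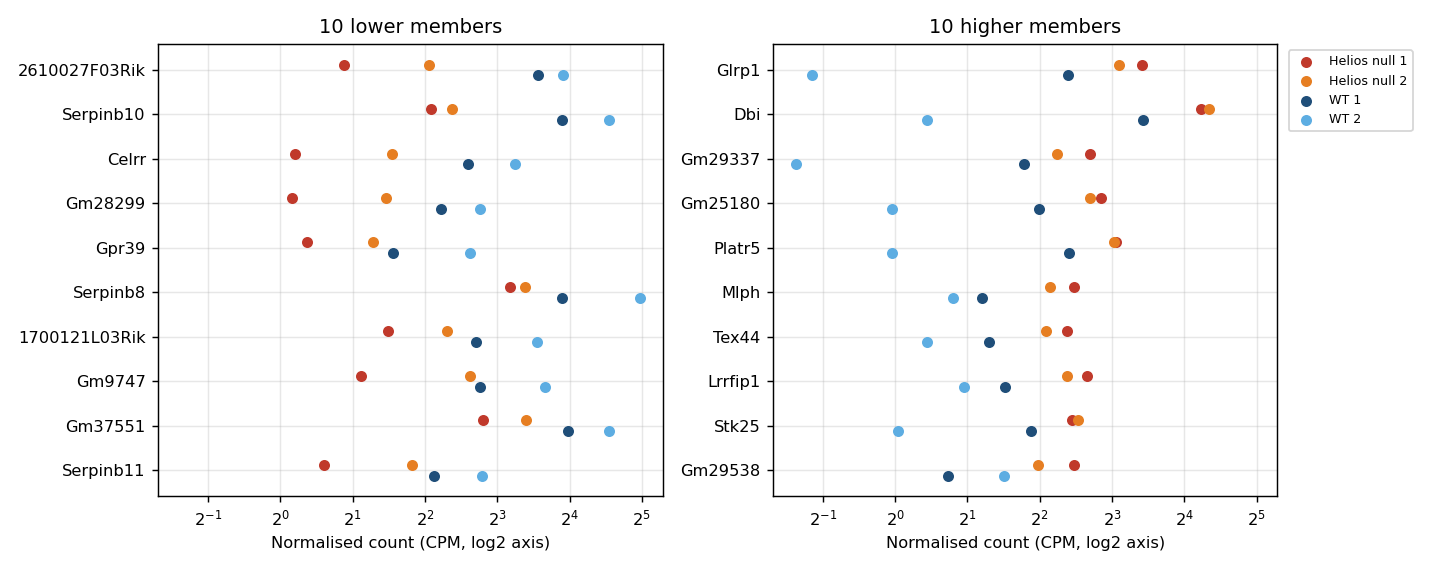
Normalised counts (CPM, log2 axis) per library at the 10 lowest and 10 highest members by the rule in the text, Helios null points drawn above WT points in each row. At the higher members WT 2 lies far to the left of the other 3 libraries in several rows, down to 0.387 CPM at Gm29337.

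The 10 highest members had log2 fold changes from 1.11 to 1.65, and 9 of them lie before 100 Mb. WT 2 was the lowest of the 4 libraries at 9 of the 10. The Glrp1 promoter peak, whose sequence is printed above (start 88509652, end 88510470), held 323 and 196 counts in Helios null, against 158 and 7 in WT. A peak assigned to Dbi, the gene of an acyl-CoA binding protein (start 120099270, end 120100216), held 571 and 465 counts in Helios null, against 325 and 21 in WT. In both cases WT 2 stood far below the other 3 libraries, and WT 1 was nearer to the Helios null libraries than to WT 2 on the log scale. Without WT 2 the log2 fold changes of Glrp1 and Dbi were 0.87 and 0.86, and 6 of the 10 members had values at least 1.5 times smaller.

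Members whose WT libraries were closer together included a distant-promoter peak of Mlph (start 90906441, end 90906822). It held 5.57 and 4.41 CPM in Helios null, against 2.29 and 1.74 CPM in WT (log2 fold change 1.29, SE 0.31). A distant-promoter peak of Lrrfip1, whose product binds nucleic acids and the actin regulator Flightless (start 91034599, end 91035063), held 6.30 and 5.19 CPM in Helios null, against 2.86 and 1.94 CPM in WT. At both peaks each WT library was below both Helios null libraries, as the rule that picked them requires.

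WT 2 stood at least 3-fold below each of the other libraries, all of them at 1 CPM or more, at 16 members (0.997%), against 0.281% of all tested peaks. This count compares a library with the rest and was made after the values above had been seen. Of these 16 peaks, 10 lie between 87 and 90 Mb, where 265 members were tested. Helios null 1 stood apart in this way at 5 members, and Helios null 2 and WT 1 at 0. Over all tested peaks the same counts were 239 for Helios null 1, 10 for Helios null 2 and 52 for WT 1.

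Of the 5 most accessible members, 4 had both Helios null libraries below both WT libraries, as did 28.3% of all tested peaks. The promoter peak of Hjurp, the gene of a chaperone for the centromeric histone CENP-A (start 88276570, end 88277974), was the strongest, with 117 and 158 CPM in Helios null, against 174 and 298 CPM in WT. It lies in the 86 to 93 Mb stretch, where the median log2 fold change was 0.32. A peak in an exon of Dsel, a dermatan sulfate epimerase-like gene (start 111864044, end 111865192), held 73.5 and 103 CPM in Helios null, against 120 and 195 CPM in WT. An intergenic peak of the sialidase gene Neu4, 2572 bp from Pdcd1 (start 94034812, end 94035733), held 94.5 and 97.7 CPM in Helios null, against 93.9 and 110 CPM in WT. The Hjurp and Dsel groups did not overlap and the Neu4 groups did.

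The promoter of Steap3, a ferrireductase gene (start 120264529, end 120266071), held 84.2 and 85.5 CPM in Helios null, against 100.8 and 114.6 CPM in WT. The promoter of Slc35f5, a solute carrier gene (start 125560167, end 125561627), held 65.4 and 76.5 CPM in Helios null, against 86.4 and 131 CPM in WT. Both were lower in each Helios null library than in either WT library. With the density trend taken out the log2 fold change of Dsel turned from -0.83 to 0.42. That of Neu4 turned from -0.08 to 0.37, and it was 0.14 with loess offsets and 0.03 without WT 2. Slc35f5 went from -0.61 to -0.09 with the density trend taken out and to -0.29 without WT 2. With loess offsets Steap3 went from -0.34 to -0.13 and Hjurp from -0.78 to -0.42. With the density trend taken out Steap3 was at -0.38 and Hjurp at -1.03.

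Members were much like other peaks in kind. Introns held 30.1% of them, distant promoters 24.5%, intergenic stretches 22.5%, promoters 13.5%, exons 5.92% and transcription ends 3.49%, against 32.1%, 24.0%, 19.9%, 15.2%, 5.02% and 3.79% of all tested peaks. Their median width was 396 bp, against 406 bp. The median log2 fold change was -0.22 at intergenic, -0.20 at intronic, -0.19 at exon, -0.10 at promoter and -0.09 at distant-promoter members, and 0.26 at the 56 transcription-end members. Over all tested peaks these medians were -0.14, 0.01, 0.00, 0.02, 0.08 and 0.14.

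The peaks next to each boundary varied in level and in the direction of the difference. The last 2 peaks before 80 Mb, both intergenic and assigned to Gm28071, held 23 and 17 counts, then 49 and 41 counts, in Helios null, against 49 and 27, then 55 and 22, in WT. The first 2 peaks inside held 298 and 233 counts, then 76 and 52, in Helios null, against 359 and 177, then 79 and 59, in WT. The last 2 peaks inside, near Nckap5, held 28 and 31 counts, then 27 and 29, in Helios null, against 47 and 50, then 47 and 45, in WT. The first 2 peaks beyond the end held 54 and 63 counts, then 42 and 51, in Helios null, against 105 and 55, then 60 and 15, in WT.

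Within 10 Mb of the Ikzf2 promoter, on the same chromosome, 895 tested peaks had a median log2 fold change of -0.20, and 10 of them (1.12%) met the near-lost rule, against 4 (0.249%) of the members. The rest of chromosome 1 beyond both intervals had 6546 tested peaks, a median of -0.04 and 2 near-lost peaks, and the 121708 peaks off chromosome 1 had a median of 0.01 and 4. These differences were not tested, since near-lost peaks delimited the interval. No peak met the same rule in the other direction in any of these sets.

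The authors' deposited table adjusted the p-value of 632 of the 1609 members, and it put 8 below 0.05, all of them lower in Helios null (1.27% of those 632, against 0.958% of all peaks with an adjusted p). The authors' deposited table gave one to 0 higher members, against 0.455% of all such peaks. The smallest adjusted p of a member in the authors' deposited table, 1.49e-06, belonged to the Serpinb10 intron peak at a log2 fold change of -1.91, and the next, 3.56e-05, to the 2610027F03Rik peak at -2.04. The other 6 lower members in the authors' deposited table were peaks of Celrr, Gm24553 (within Serpinb7), Gm37551 (within Dpp10), Slco4c1, Serpinb8 and Irs1, at log2 fold changes between -1.72 and -0.97. The authors' deposited table gave none of the 4 near-lost members an adjusted p, and its log2 fold change was -3.55 at both Gm28282 peaks, -3.03 at Col6a3 and only -0.12 at Gm37936. The sources used here do not say whether the authors shrank these fold changes.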

How the data were processed

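The tools bcl2fastq 2.17.1.14 and Bowtie2 2.3.4.3 are listed beside HOMER and DESeq, on mm10, per the submitters' processing notes, which state neither their roles, nor a peak caller, nor any pooling. Per the file headers, the authors deposited raw counts per peak, a mean normalised signal, log2 fold changes of Helios null over WT with standard errors, and p-values. Counts were analysed with edgeR 4.0.16 in R 4.3.3 over all peaks. filterByExpr kept 130754 and dropped 187. TMM factors were 1.00 and 1.02 for Helios null and 1.01 and 0.966 for WT. glmQLFit and glmQLFTest were used, 2-sided, with Benjamini-Hochberg adjustment, and the SE of a fold change was derived from its F statistic. CPM values are TMM-normalised, and differences between same-numbered libraries used a prior count of 2. Labels name 2 mice per genotype. Replicate libraries were not duplicates, with a chi-square per degree of freedom of 5.13 in Helios null and 8.29 in WT. DESeq2 1.42.0 and limma 3.58.1 were alternatives. The edgeR step was run on simulated counts with known changes, drawn with no sex difference and no density trend. That run does not show how the step handles such differences between libraries.

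Members, gene lists and alternatives were chosen with earlier results of these data known. Named peaks are all near-lost members; the 10 lowest and 10 highest fold changes of at least median level with groups that did not overlap, 1 per gene; the 5 most accessible; the strongest promoter (or other) peak of listed genes; 2 peaks on each side of each boundary; and the authors' lowest adjusted p-values. The 5-fold members, the 86 to 93 Mb stretch with its flanks, the promoters printed and the counts of 1 library below the rest were chosen after seeing the data. The sequences of the near-lost peaks were not used here. Peak starts are printed as the file gives them.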

Additional observations from a re-analysis of the deposited data

Results flagged for a closer look

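In the 80 to 90 Mb block the median log2 fold change of Helios null over WT had opposite signs in the library pairs, which differ in sex: -0.010 for the male pair (number 1) and 0.088 for the female pair (number 2). With 1 library per sex and genotype the difference was not tested.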

How the results depend on the processing

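The count of lower members past the edgeR threshold was 3 with density offsets, 310 with replicate number as a block and 9 with DESeq2, and from 3 to 287 with each library left out. That of higher members was 130 with the block and from 0 to 139 with each library left out. Calls over all peaks moved too: the block called 12.8% of all tested peaks lower (members 19.3%) and 10.6% higher (members 8.1%), DESeq2 called 0.926% of adjusted peaks lower, and from 39 (without Helios null 1) to 28120 (without WT 1) peaks were called in either direction with a library left out. Library number followed sex by the Y-linked counts, so the block also takes out any difference between the sexes, which the main model leaves in. Sex and any other difference between the numbers cannot be told apart here. The numbers are not stated to pair the mice, and deviations of same-numbered libraries had a correlation of 0.371 across peaks. No change of call under the block is read as pairing. The near-lost count was 0 with density offsets and 8 at a 5-fold limit, and from 1 to 7 with each library left out. The median log2 fold change of members was -0.029 with density offsets and -0.059 over members of at least median level, and from -0.21 to -0.11 with each library left out. For the 80 to 90 Mb block (block 1) it ran from -0.035 to 0.14 with each library left out. For the 90 to 100 Mb block (block 2) it was 0.15 with density offsets and ran from 0.030 to 0.19. For the last block (block 5) it was -0.16 with density offsets. With each library left out the medians of blocks 3, 4 and 5 stayed below 0, from -0.51 to -0.27, from -0.68 to -0.26 and from -0.75 to -0.36. Of 377 values of 29 named peaks under 13 alternatives, 373 kept their sign. The cause of these shifts was not tested. With 2 libraries per genotype and counts as low as 4 at near-lost peaks, the size of single folds is poorly fixed.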
